A study of Mus musculus with 12 samples.

Results

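The set described here holds 35 genes of the endoplasmic reticulum (ER): its chaperones, disulfide-forming enzymes, stress sensors, degradation machinery and protein translocation pore. The genes were listed by name and function, and each was read from its probe set with the highest mean over 12 arrays. All 35 were on the array, 2 of them (Ero1l and Ero1lb) under the newer symbols Ero1a and Ero1b, among 12393 genes with a probe set of their own. All 35 also passed the filter on dim genes that left 8469 genes to test.

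Secreted and membrane proteins enter the ER through the Sec61 pore and fold there with the help of chaperones such as Hspa5 (BiP) and of protein disulfide isomerases. When unfolded protein builds up, the sensors Ern1 (IRE1), Atf6 and Eif2ak3 (PERK) start the unfolded protein response: Ern1 splices the Xbp1 message, Atf6 is cut loose from the membrane, and both routes raise transcription of chaperones and of ER-associated degradation (ERAD). Hepatocytes secrete most plasma proteins and so carry a large ER and high levels of this machinery.

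Liver RNA came from adult male C57BL6/J mice aged 8 weeks, with 12 samples, 3 in each of 4 groups. Every sample title names the same mouse, 8, and ends in a number of its own; that last number was taken as the animal, so each n of 3 rests on this reading, and if it is wrong the p-values measure a spread that may be technical. Wild-type mice, and mice labelled Txnrd1 liver-null, in which a conditional allele of Txnrd1 (cytosolic thioredoxin reductase, which passes electrons from NADPH to thioredoxin) is disrupted by albCre, a Cre made in hepatocytes, received either saline or acetaminophen (APAP) at 100 mg/kg into the peritoneum. Livers were taken 8 h later and each was read on 1 Affymetrix array, so the comparisons ask whether the ER genes differed with the genotype, 8 h after APAP, or both. Nothing used here says whether the wild-type mice carried the conditional allele or the Cre. The titles speak of liver cells and the other labels of liver tissue, so every value is a mixture over cell types.

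On its probe set Txnrd1 was higher in the livers labelled liver-null, by 0.75 on the log2 scale over both injections (SE 0.09, limma adjusted p = 0.000858). Where that probe set lies relative to the deleted part was not analysed here, so it checks no label, and every genotype direction below rests on the labels. Hepatocyte markers were high on all arrays, with Alb at 13.66 to 13.85 on the log2 scale. The arrays fell into 2 sets, which no label names, by the upper quartile of their values: 5.49 to 5.58 on saline livers 10 (wild-type) and 16 (liver-null) and APAP livers 14 (wild-type) and 17 (liver-null), called set 2, and 5.73 to 5.85 on the other 8, called set 1.

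Mouse promoters from RefSeq (build GRCm38.p6, 250 bases before to 50 after a gene's start) were searched on both strands for the ER stress response element (CCAAT, 9 bases of any kind, then CCACG), to which Atf6 and Xbp1 are known to bind with the factor NF-Y, and for the related element II (ATTGG, 1 base of any kind, then CCACG). The table held 30 of the 35 genes, without Hyou1, Manf, Atf6, Derl1 and Sec61a1. The first element was found in 10 of these 30 genes (33.3%), against 37 of all 27025 genes searched, or 39 of all 32851 promoters (0.119%). The second was found in 2 of 30 (6.67%), against 12 of all 27025 genes, or 12 of all promoters (0.0365%). No promoter of the set held both. Of the first kind, 6 sequences are shown because their genes lie at both ends of the variation between livers described below: Derl3, Creld2 and Syvn1 varied much, Dnajc3 and Canx little, and Hspa5 is the best known target. The fixed letters of the element are in capitals, and each sequence is read 5′ to 3′ on the strand that gives CCAAT first.

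Derl3, chr10:75893227-75893275, minus strand: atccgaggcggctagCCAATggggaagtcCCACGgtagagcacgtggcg
Creld2, chr15:88819505-88819553, minus strand: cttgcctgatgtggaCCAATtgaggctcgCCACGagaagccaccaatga
Syvn1, chr19:6046517-6046565, plus strand: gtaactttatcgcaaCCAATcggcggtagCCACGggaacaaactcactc
Hspa5, chr2:34772010-34772058, plus strand: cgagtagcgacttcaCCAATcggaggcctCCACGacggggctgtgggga
Dnajc3, chr14:118937812-118937860, plus strand: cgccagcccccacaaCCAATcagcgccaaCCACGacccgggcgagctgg
Canx, chr11:50325785-50325833, minus strand: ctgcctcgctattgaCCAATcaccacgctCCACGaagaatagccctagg

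The element ends 47 bases before the start of Hspa5, 26 before that of Syvn1, 87 before that of Dnajc3 and 127 before that of Canx. In Derl3 and Creld2 it lies on the strand opposite to the gene, 156 to 138 and 126 to 108 bases before the start. The other promoters with the first element belong to Pdia6, Calr, Ero1b and Hsp90b1, the last with 2 matches. The second element is in the promoters of Dnajb11 and Herpud1, and is shown for Herpud1, whose message is a known early target of the response.

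Herpud1, chr8:94386362-94386402, plus strand: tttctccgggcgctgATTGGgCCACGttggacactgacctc

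A match is a description of these letters and not a site of binding.

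A pair of livers stood apart on these genes and are named before the comparisons, because they bear on each of them; they were picked out after the values were seen. Liver-null saline 4 was the highest of all 12 livers on 17 of the 35 genes, where it was the highest on 13.7% of all tested genes. Wild-type APAP 12 was the highest on 7, against 12.3% of all tested genes. These 2 livers, of different genotype and injection, were the 2 highest on 20 of the 35 genes, against 6.38% of all tested genes. Wild-type saline 10, an array of set 2, was at the other end, the lowest of the 12 on 13 genes. The share of all tested genes lowest there was not computed. Its median deviation from the mean of 12 livers was -0.23 over the 35 genes and -0.10 over all tested genes.

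**Figure D1:**
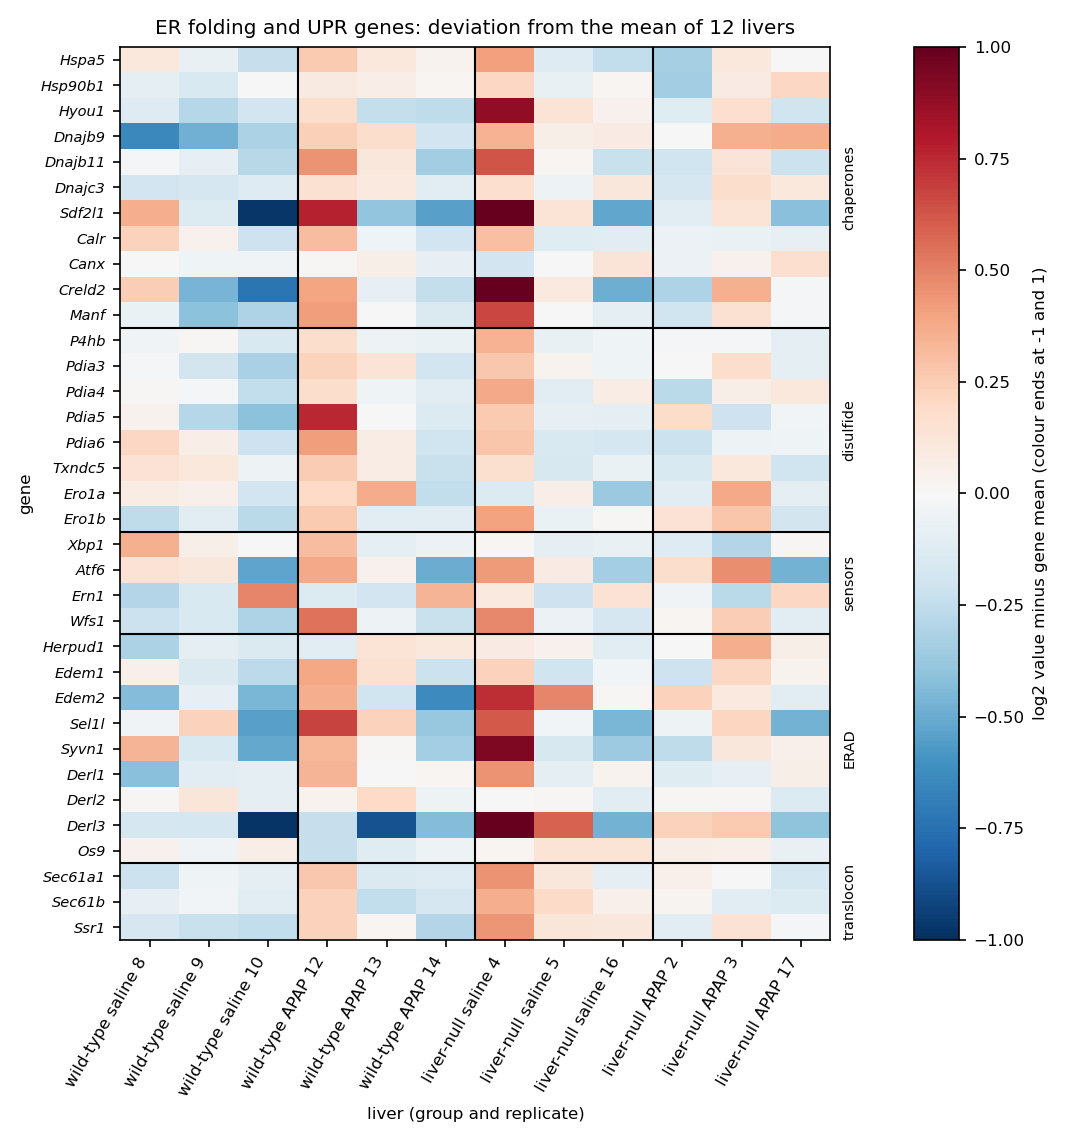
Each row is 1 of the 35 genes and each column 1 of the 12 livers, coloured by how far its log2 value lies above (red) or below (blue) that gene's mean of 12 livers, with colours ending at -1 and 1. Liver-null saline 4 and wild-type APAP 12 are red over most rows, and wild-type saline 10 is blue over most rows.

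Within its own group, liver-null saline 4 lay above both other livers on 30 of 35 genes (85.7%, against 43.3% of all tested genes), by a median of 0.41 on the log2 scale over the mean of the other 2 livers (0.07 over all tested genes). Wild-type APAP 12 lay above both others of its group on 29 genes, against 43.5% of all tested genes, with a median of 0.38 (0.08 over all tested genes). By role, liver-null saline 4 was the highest of the 12 livers on 6 of 11 chaperones, 4 of 8 disulfide enzymes, 4 of 9 ERAD genes and all 3 translocon genes, but on 0 of the 4 sensors and transcription factors.

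Derl3, Sdf2l1 and Creld2 had the largest SDs between livers of a group among the 35 genes, whereas the ERAD genes Os9, Derl2 and Herpud1 were among the least variable, at SDs of 0.07, 0.10 and 0.14. Derl3, a derlin that helps to draw misfolded protein out of the ER, read 6.23 in liver-null saline 4, 4.15 in liver-null saline 5 and 3.09 in liver-null saline 16, so that the first liver was 6.10-fold above the mean of the other 2. In the other 9 livers Derl3 lay between 2.58 and 3.82, close to the array medians of 2.91 to 2.99, where fold changes may be understated. Its SD between livers of a group, pooled over the 4 groups, was 0.87 on the log2 scale, above that of 99.3% of tested genes.

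Sdf2l1, which works with the Hspa5 cycle, read 9.01, 7.46 and 6.80 in liver-null saline livers 4, 5 and 16, and 8.09, 6.93 and 6.78 in wild-type APAP livers 12, 13 and 14. It read 7.68, 7.19 and 6.35 in wild-type saline livers 8, 9 and 10, and 7.21, 7.46 and 6.91 in liver-null APAP livers 2, 3 and 17. The 4 groups overlapped on Sdf2l1, and liver-null saline 4 was 3.68-fold above the mean of the other 2 of its group. Creld2, a secreted ER stress marker, followed the same order at the top, with 10.97 in liver-null saline 4 and 10.13 in wild-type APAP 12, against at most 10.09 in the other 10. Syvn1, the ERAD ubiquitin ligase also called Hrd1, reached 8.67 in liver-null saline 4 and lay between 7.23 and 8.08 elsewhere.

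Hspa5 itself moved less between livers. It read 12.71 in liver-null saline 4 and 12.57 in wild-type APAP 12, and between 11.97 and 12.41 in the other 10. Hyou1, the nucleotide exchange factor that resets Hspa5, read 9.70 in liver-null saline 4 and 8.52 to 8.98 in all others. Manf, a small secreted ER protein, read 11.51 in liver-null saline 4, 11.27 in wild-type APAP 12 and at least 10.44 in the others, all below these 2. The disulfide isomerases P4hb, at 11.85 in liver-null saline 4 and 11.35 to 11.68 elsewhere, and Pdia4, at 9.27 against 8.62 to 9.07, varied over a narrower range.

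The remaining chaperones and disulfide enzymes varied over the 12 livers by different amounts. Dnajb11 (ERdj3), a co-chaperone of Hspa5, ran from 6.90 to 7.88, Calr (calreticulin) from 11.45 to 11.97 and Hsp90b1 (Grp94) from 11.55 to 12.11. Pdia5 reached 9.65 in wild-type APAP 12 and lay between 8.49 and 9.16 elsewhere, while the isomerases Pdia3, Pdia6 and Txndc5 ran from 10.27 to 10.86, from 9.65 to 10.28 and from 8.36 to 8.83. Ero1a and Ero1b, the oxidases that recharge these isomerases, ran from 4.61 to 5.36 and from 9.04 to 9.70. Calr, Pdia5, Pdia6 and Txndc5 were each highest in wild-type APAP 12 and next highest in liver-null saline 4, whereas Hsp90b1 was highest in liver-null APAP 17 and liver-null saline 4, equal to 2 decimals, and Ero1a in liver-null APAP 3.

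Some sensor and ERAD genes differed between the array sets. Atf6 read 6.92 to 7.11 in the 4 livers of set 2 and 7.49 to 7.91 in the 8 of set 1, and Sel1l 5.41 to 5.57 against 5.90 to 6.63, so that neither gene overlapped between the array sets. The share of all tested genes without overlap between the array sets was not computed. The shift was not particular to these genes. The median deviation over all tested genes was -0.11 to -0.07 on the arrays of set 2 and 0.02 to 0.07 on those of set 1. The part of the array set in the spread of Atf6 and Sel1l was not tested beyond the fits with it as a covariate. Wfs1 was highest in wild-type APAP 12 and liver-null saline 4, at 5.57 and 5.51, and between 4.73 and 5.28 elsewhere. Edem1, which like Edem2 hands glycoproteins to ERAD, ran from 8.61 to 9.26, Derl1 from 8.54 to 9.42, Derl2 from 9.73 to 10.06 and Herpud1 from 10.71 to 11.38. The pore subunit Sec61a1 read 10.78 in liver-null saline 4, 10.60 in wild-type APAP 12 and 10.11 to 10.44 elsewhere.

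Some genes of the set did not share this order. Canx, the membrane lectin chaperone calnexin, was lowest in liver-null saline 4 (10.53, against 10.64 to 10.89 in the others) and Os9, a lectin of ERAD, was lowest in wild-type APAP 12 (8.14, against 8.25 to 8.51). Xbp1, whose array signal does not separate the spliced from the unspliced message, was highest in wild-type saline 8 (11.29) and read 10.94 in liver-null saline 4. Ern1 was highest in wild-type saline 10 (4.28), and its 4 highest livers were the 4 of set 2. The share of all tested genes with such a split was not computed. The median SD between livers of a group was 0.21 over the 35 genes and 0.21 over all tested genes. Among genes with the first promoter element the median SD was 0.22, and among genes of the table without it 0.19, with ranges of 0.11 to 0.87 and 0.07 to 0.76.

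**Figure D2:**
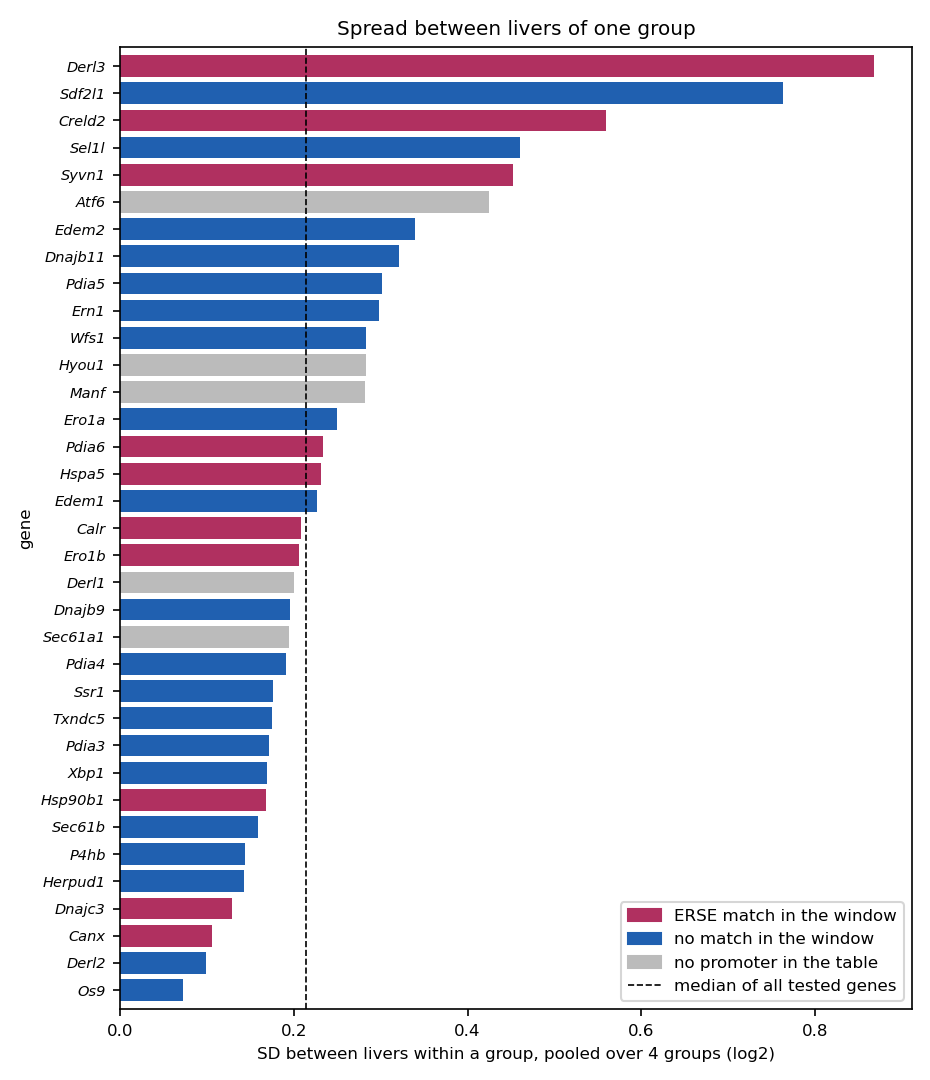
Each bar is the SD between livers of a group (log2 scale, pooled over the 4 groups) of 1 gene, coloured by whether its promoter holds the ER stress response element (ERSE), lacks it or is not in the table. Genes with the element sit at both ends, from Derl3 at 0.87 to Canx at 0.11, and the dashed line marks the median of all tested genes at 0.21.

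Some other measures moved with these 2 livers. S100a8 and S100a9, calcium-binding proteins of neutrophils, read 5.57 and 5.28 in liver-null saline 4 and 4.83 and 4.12 in wild-type APAP 12, against 2.63 to 3.97 and 2.85 to 3.38 elsewhere. The summed level of the 7 neutrophil markers on the array, on the log2 scale, was at most 5.38 in wild-type saline, 5.32 to 6.03 in wild-type APAP, 5.18 to 6.75 in liver-null saline and 5.24 to 5.53 in liver-null APAP, and the defining markers Ngp, Mpo, Elane, Camp and Cxcr2 were at 2.90 or below on every array. The 10 Kupffer cell and macrophage markers summed to 11.27 in liver-null saline 4 and 11.45 in wild-type APAP 12, within the range of 10.47 to 11.47 over all 12 livers. Single markers of that list differed from the sum. Marco read 7.38 in liver-null saline 4 and 2.13 to 6.02 in all others, with 4.16 in wild-type APAP 12. Clec4f read 8.03 and 8.77 in these 2 livers, within 7.65 to 8.88 over all 12. The 9 hepatocyte markers summed to 16.06 and 16.13, within 15.98 to 16.13.

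The 7 plasma and B cell markers, cells that are rich in ER, summed to 5.05 to 5.27 over all 12 arrays. The 3′ to 5′ signal differences of Gapdh and Actb, a sign of RNA integrity, were 0.03 and 0.91 in liver-null saline 4 and 0.04 and 0.91 in wild-type APAP 12, within the ranges of -0.10 to 0.24 and 0.86 to 1.09 over the 12 arrays. The part of these measures in the ER values was not tested, and in bulk liver fewer cells of a type and less RNA per cell cannot be told apart.

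Between genotypes after saline, most ER genes had a fitted difference above 0, but none passed the test. In liver-null against wild-type livers the difference was above 0 for 29 of 35 genes (44.8% of all tested genes), with a median of 0.24 on the log2 scale (-0.03 over all tested genes). Of the 35, 0 had a limma adjusted p under 0.05, where 0.638% of all tested genes did, and 5 had an unadjusted p under 0.05 (12.2% of tested genes), all higher (5.01% of tested genes were higher at that limit). The medians were 0.26 for the 11 chaperones, all above 0, 0.17 for the 8 disulfide enzymes, 0.07 for the 4 sensors and transcription factors, 0.19 for the 9 ERAD genes and 0.27 for the 3 translocon genes. Without liver-null saline 4 the median over the 35 fell to 0.09, with 23 above 0 and 1 gene at an unadjusted p under 0.05. Within array set 1 the median was 0.24 and within set 2 it was 0.14. With array weights it was 0.14 (-0.04 over all tested genes), and 4 members were called (Dnajb9, Edem2, Hyou1 and Ssr1), where 15.6% of all tested genes were.

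Markers of cell types were read in the same comparison. All 10 stellate cell and fibroblast markers had a difference below 0, with a median of -0.40, where 44.8% of all tested genes lay above 0. Of the 10, 0 were called by limma (0.638% of all tested genes). At an unadjusted p under 0.05 by limma were 4 (Col3a1, Pdgfrb, Reln and Rgs5), where 12.2% of all tested genes were. Pdgfrb was called with the array set in the model, where 2.87% of all tested genes were. The summed level of the 10 markers, on the linear intensity scale, was 1164 to 1492 in wild-type and 1027 to 1189 in liver-null saline livers, an overlap of the groups. Of the endothelial markers 7 of 8 lay below 0 (median -0.19), and of the hepatocyte markers 7 of 9 (median -0.10). Of the Kupffer cell and macrophage markers 5 of 10 did (median -0.01). At an unadjusted p under 0.05 by limma, the hepatocyte marker Apoa1 and the Kupffer cell marker Clec4f were lower. Clec4f, at -0.63, was also called with the array set in the model. Marco, of the same list, had its largest difference, 1.70, but did not reach that unadjusted limit. The 9 pancreatic acinar markers summed, on the log2 scale, to 7.93 to 8.54 in wild-type and 6.58 to 6.82 in liver-null saline livers. That gap came with Cela1, an elastase, which was called by limma and read 7.70 to 8.41 and 5.91 to 6.28, while the other acinar markers, among them Cpa1, Cpb1 and Ctrb1, were at 2.84 or below on every array. The part of other cell types in the ER differences was not tested.

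Dnajb9 (ERdj4), a co-chaperone that directs Hspa5 and is known as a target of Xbp1, had the smallest p. It read 8.91, 9.07 and 9.24 in wild-type saline livers 8, 9 and 10, and 9.90, 9.61 and 9.63 in liver-null saline livers 4, 5 and 16. The saline groups did not overlap on Dnajb9, and its mean in liver-null livers, by their label, was 1.56-fold that of wild-type livers (log2 difference 0.64, SE 0.16, limma adjusted p = 0.103). Without liver-null saline 4 the difference was 0.55 (limma adjusted p = 0.304).

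Edem2, which trims mannose from glycoproteins to mark them for ERAD, read 6.48, 6.83 and 6.45 in wild-type saline livers and 7.65, 7.40 and 6.92 in liver-null saline livers, with no overlap. Its log2 difference was 0.74 (SE 0.25, limma adjusted p = 0.223), and with the array set in the model, where 2.87% of all tested genes were called, the limma adjusted p was 0.048. That call was lost without liver-null saline 4 (difference 0.64 with the array set, limma adjusted p = 0.144). Of the 35 genes, 8 did not overlap between the saline groups, all higher in liver-null livers: Dnajb9, Edem2, Hyou1, Dnajc3, Ero1b, Derl1, Sec61b and Ssr1 (6.48% of tested genes did so in this direction).

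Among these, Ssr1, a subunit of the complex beside the Sec61 pore, read 9.07, 9.01 and 8.99 in wild-type saline livers and 9.68, 9.36 and 9.35 in liver-null saline livers, a log2 difference of 0.44 (SE 0.15, limma adjusted p = 0.227). Hyou1 differed by 0.56 (SE 0.21, limma adjusted p = 0.288), and by 0.29 without liver-null saline 4. That fall belongs to the probe set used, on which this liver lay 0.80 above the mean of the other 2. On another Hyou1 probe set (mean 7.34) the difference was 0.87, and liver-null saline 4 lay only 0.18 above the mean of the other 2. Derl3 had the largest difference, 1.37 (SE 0.60, limma adjusted p = 0.379), which fell to 0.50 without that liver. For the best known target, Hspa5, the difference was 0.08, with a 95% interval of -0.32 to 0.47, and for Canx and Calr, the lectin chaperones, it was 0.01 and 0.00. Xbp1 differed by -0.19 and Ern1 by 0.00, while Atf6 and Wfs1 (wolframin, a regulator of the response) differed by 0.15 and 0.31.

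**Figure D3:**
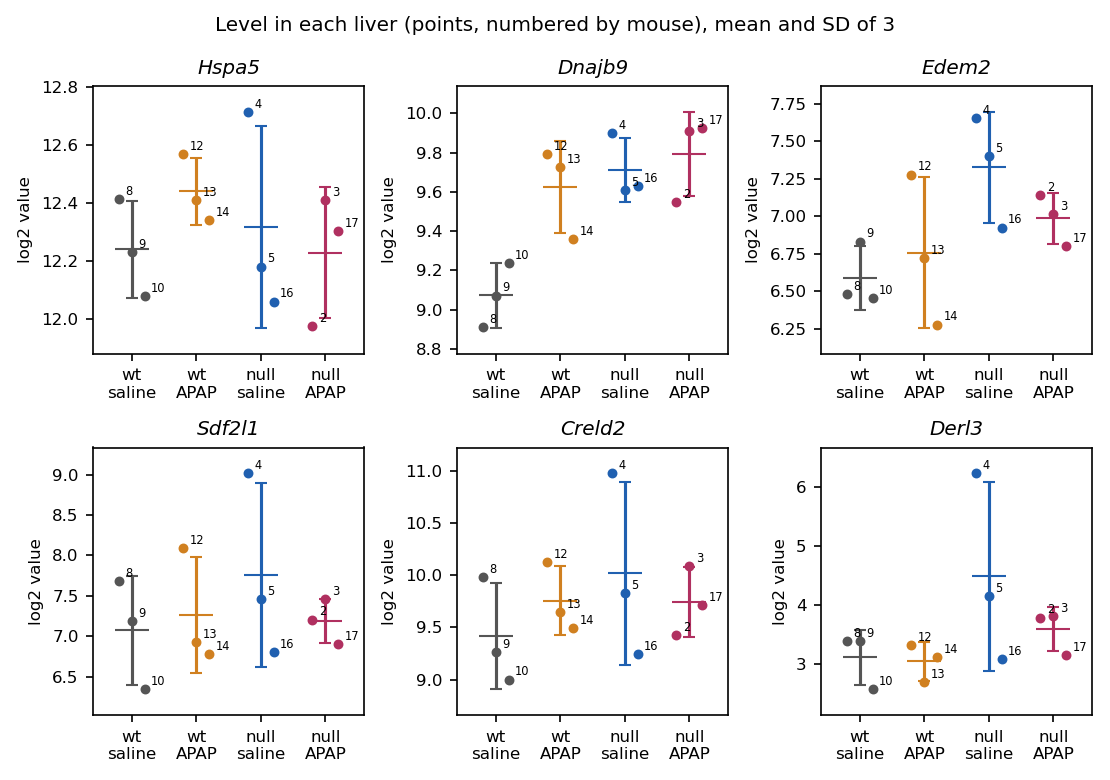
Points are the log2 values of 6 genes in each liver, numbered by mouse, with the mean and SD of the 3 livers of a group (wt, wild-type; null, liver-null). Dnajb9 and Edem2 do not overlap between the saline groups, whereas Hspa5, Sdf2l1, Creld2 and Derl3 do, with liver-null saline 4 the highest point of each of these 4.

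After APAP the fitted genotype differences of these genes lay near 0, more of them below than above it. The difference, liver-null minus wild-type, was above 0 for 10 of 35 genes (49.3% of all tested genes), with a median of -0.04 (-0.00 over all tested genes). None of the 35 passed limma at an adjusted p under 0.05, 0 had an unadjusted p under 0.05, and 0 did not overlap between the groups, where 0.768%, 9.02% and 13.9% of tested genes did. The largest differences were 0.54 for Derl3, -0.28 for Sel1l, the adaptor of Syvn1, and 0.23 for Edem2. Dnajb9 read 9.79, 9.73 and 9.36 in wild-type APAP livers 12, 13 and 14 and 9.55, 9.91 and 9.92 in liver-null APAP livers 2, 3 and 17, a difference of 0.17 (SE 0.16). Hspa5 differed by -0.21, with a 95% interval of -0.60 to 0.18. Without wild-type APAP 12 the median turned to 0.05 and 25 genes were above 0; within array sets 1 and 2 it was -0.13 and 0.11.

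**Figure D4:**
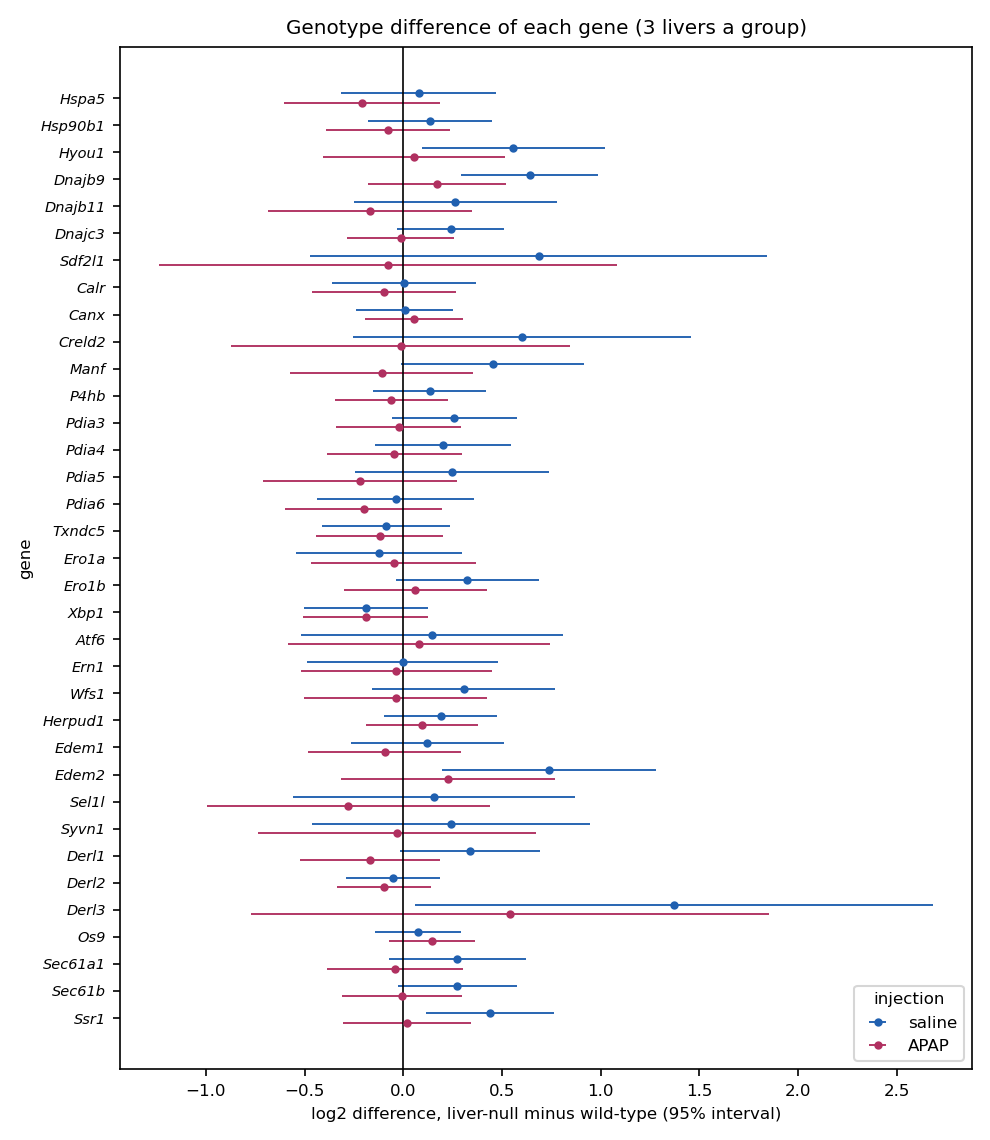
Points are the fitted log2 differences of each gene, liver-null minus wild-type, after saline and after APAP, and lines are 95% intervals from limma with 3 livers a group. Of the 35 intervals 5 lie wholly above 0 after saline (Derl3, Dnajb9, Edem2, Hyou1 and Ssr1), and 0 exclude 0 after APAP.

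APAP against saline gave no called gene in either genotype, over the whole array as well as in the set (limma adjusted p under 0.05 in 0% of tested genes in each). In wild-type livers the difference was above 0 for 30 of 35 genes (45% of all tested genes), with a median of 0.14 (-0.02 over all tested genes). Dnajb9 alone had an unadjusted p under 0.05 (1.69% of tested genes): it was higher in all 3 APAP livers than in all 3 saline livers, by 0.55 (SE 0.16, limma adjusted p = 1.00). Derl1, Dnajc3, Ero1b and Hsp90b1 also did not overlap and were higher after APAP (2.23% of tested genes in this direction), by 0.33, 0.21, 0.23 and 0.14. Os9 did not overlap either and differed by -0.16 (5.02% of tested genes did not overlap in one or the other direction). The difference of Hspa5 was 0.20. Without wild-type APAP 12 the median was 0.04, with 22 genes above 0; within array sets 1 and 2 it was 0.19 and 0.04.

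In the livers labelled liver-null, APAP minus saline was above 0 for 5 of 35 genes (55.9% of all tested genes), with a median of -0.09 (0.02 over all tested genes). None had an unadjusted p under 0.05 by limma, where 0.697% of tested genes did. Sec61b, a small subunit of the pore, did not overlap, with 10.99, 10.82 and 10.68 after saline and 10.66, 10.53 and 10.49 after APAP (a difference of -0.27, SE 0.14). Groups of 4.89% of tested genes did not overlap here. The largest differences were -0.90 for Derl3, -0.57 for Sdf2l1 and -0.40 for Hyou1, each of them highest in liver-null saline 4. Without that liver the median turned to 0.03 and 24 genes were above 0, and with array weights it was 0.005 with 18 above 0; within array sets 1 and 2 it was -0.17 and 0.03.

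The difference between the 2 APAP responses (liver-null minus wild-type), which uses the same 12 livers, was below 0 for 32 of 35 genes (56.8% of all tested genes lay above 0), with a median of -0.27 (0.03 over all tested genes). None of the 35 was called by limma, as none of all tested genes was (0%), and only Derl1 had an unadjusted p under 0.05, at -0.51 (SE 0.23, limma adjusted p = 0.999), against 1.29% of tested genes. Without liver-null saline 4 the median was -0.12, and without both that liver and wild-type APAP 12, a choice made after seeing the data, it was -0.027 with 15 genes above 0. With array weights the median was -0.09. Within array set 1 it was -0.36 and within set 2 it was -0.05.

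Averaged over both injections, the genotype difference was above 0 for 26 of 35 genes (46.8% of all tested genes), with a median of 0.10 (-0.01 over all tested genes). That median was 0.01 without liver-null saline 4 and 0.02 with array weights. None of the 35 was called by limma, while 4.46% of all tested genes were, and Dnajb9, Edem2 and Derl3 had an unadjusted p under 0.05 (17% of tested genes), all higher (7.75% of tested genes were higher at that limit). Dnajb9 read 1.32-fold as high in liver-null as in wild-type livers (log2 difference 0.40, SE 0.11, limma adjusted p = 0.0703). With the array set in the model its limma adjusted p was 0.0422, and 0.082 once liver-null saline 4 was left out as well. Edem2 read 1.40-fold as high (0.48, SE 0.18, limma adjusted p = 0.167), with limma adjusted p = 0.031 with the array set in the model and 0.0604 without liver-null saline 4 as well. With the array set, 10.4% of all tested genes were called. With array weights Dnajb9, Edem2 and Derl3 were called, where 16.6% of all tested genes were, and with a trended, robust variance prior Dnajb9, where 4.98% were. Within array sets 1 and 2 the difference was 0.37 and 0.48 for Dnajb9, and 0.48 and 0.50 for Edem2, with only 1 liver a group in set 2. These averages hide a difference between the sets. After saline the values in sets 1 and 2 were 0.76 and 0.39 for Dnajb9, and 0.87 and 0.47 for Edem2. After APAP they were -0.03 and 0.57 for Dnajb9, and 0.08 and 0.52 for Edem2.

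APAP minus saline averaged over both genotypes was above 0 for 18 of 35 genes (49.2% of all tested genes), with a median of 0.02. No gene of the set or of the array was called by limma (0%), and Dnajb9, at 0.32, was the only member with an unadjusted p under 0.05 (1.2% of tested genes).

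The 95% intervals bound the size of change that these arrays leave possible. Over both injections, the genotype difference of 28 of the 35 genes lay within 1.5-fold either way, and that of 33 within 2-fold, the exceptions being Derl3 and Sdf2l1. For the genotype after saline the counts were 18 and 30, for APAP in wild-type livers 19 and 31, and for APAP in liver-null livers 24 and 32. Hspa5 lay within 1.5-fold in 3 of these 4 comparisons, and in the fourth, APAP in wild-type livers, its interval ran from -0.20 to 0.59 on the log2 scale. The median distance from the estimate to the end of its interval was 0.36 on the log2 scale (1.29-fold) with 3 livers against 3.

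Other probe sets were present for 21 of the genes, though those of Pdia4 and Ern1 exceeded the 40th percentile on 0 arrays. Of 36 further probe sets above the filter, 30 had the same sign of the genotype difference after saline as the one used, and 26 after APAP. All 3 probe sets of Sel1l above the filter were higher in liver-null saline 4 than the mean of the other 2, by 0.86, 1.00 and 0.96, and the 2 other Canx probe sets were lower there as well, by -0.36 and -0.15. For other genes the size of this difference depended on the probe set. It was 0.59 on the one used and 0.14 on the other for Hspa5, and 0.23 and 0.70 for Hsp90b1. For Hyou1 it was 0.80 on the one used and 0.18 on another. For Dnajc3 it was 0.13 on the one used and from 0.01 to 0.56 on the others.

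Genes of the same pathway outside the set were read from 6 lists with 97 tested genes. In the genotype comparison after saline 0 of the 97 were called by limma (0.638% of all tested genes). An unadjusted p under 0.05 by limma was reached by 13, which is 13.4% of the lists against 12.2% of all tested genes. Of these 13, 12 were higher and 1 lower, where 5.01% of all tested genes were higher at that limit. The median was 0.17 with 72 above 0 (-0.03 over all tested genes). Signal peptidase, translocation and glycosylation genes had a median of 0.23 (21 of 24 above 0) and ER to Golgi transport genes 0.26 (20 of 23 above 0), each without a called gene. Other ER folding genes had a median of 0.13 (13 of 19 above 0), the arm of Eif2ak3 0.19 (7 of 10), other ER membrane transcription factors and proteases 0.10 (3 of 5) and other ERAD genes 0.03 (8 of 16). Erlin1, an ER membrane protein of ERAD, differed by -0.80 (limma adjusted p = 0.234). Stt3a, the catalytic subunit of the oligosaccharyltransferase, differed by 0.47 (limma adjusted p = 0.205) and Sec24d, a cargo adaptor of COPII vesicles, by 0.73 (limma adjusted p = 0.202). On the median gene of the transport list liver-null saline 4 stood 0.34 and wild-type APAP 12 0.29 above the mean of the 12 livers, the highest deviations on that list. Not every list had this order. On the other ERAD list liver-null saline 4 stood at 0.06, below wild-type APAP 13 at 0.09 and wild-type saline 8 at 0.08. In the arm of Eif2ak3 wild-type APAP 12 stood at 0.10, below liver-null APAP 2 at 0.20.

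The arm of Eif2ak3 and the integrated stress response held the only called gene of these lists. Trib3, a pseudokinase induced through Atf4, read 3.30 to 3.85 in the 6 wild-type livers and 4.03 to 4.75 in the 6 liver-null livers, with no overlap over both injections. The share of all tested genes without overlap over both injections is not given here. In wild-type livers Trib3 lay not far above the array medians of 2.91 to 2.99, where fold changes may be understated. It was higher in the livers labelled liver-null by 0.64 (SE 0.15, limma adjusted p = 0.0316), 1 of 10 tested genes of its list, where 4.46% of all tested genes were called; the list had a median of 0.03 with 5 of 10 above 0. Asns, the asparagine synthetase and another Atf4 target, had a larger but more variable difference after saline, 2.44 (SE 0.92, limma adjusted p = 0.287), with 4.28 to 7.25 in wild-type and 6.22 to 8.99 in liver-null saline livers. Chac1, which degrades glutathione, differed by 0.96 (SE 0.45, limma adjusted p = 0.426). In wild-type saline livers it read 3.33 to 3.79, also not far above the array medians. In the genotype comparison after APAP, in both APAP comparisons and in their difference, 0 of the 97 genes were called by limma, and 3, 0, 1 and 2 had an unadjusted p under 0.05 (9.02%, 1.69%, 0.697% and 1.29% of all tested genes). Over both injections 12 did, which is 12.4% of the lists against 17% of all tested genes. With the array set in the model 7 were called, 7.22% of the lists against 10.4% of all tested genes, both shares below those of the whole array: Trib3, Asns, Sesn2 and Rpn2 higher, and Erlin1, Ppib and Txndc12 lower.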

How the data were processed

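Liver RNA of 12 mice (4 groups of 3) was amplified to biotin-labelled cRNA in a single cycle and read on Affymetrix arrays, per the labels' protocols. For each probe set the authors deposited a log2 value from RMA, per the submitters' processing notes; version and background model: not given in the sources used here. No further normalization was applied. Of 22690 probe sets, 20380 have 1 gene symbol in the platform annotation, 691 several and 1555 none besides 64 controls. A gene was read from its probe set with the highest mean (12393 genes) and tested where it exceeded the array's 40th percentile on at least 3 arrays (8469 genes, 3924 removed). limma 3.58.1 in R 4.3.3 was fitted with a mean per group over all 12 arrays (8 residual and 3.43 prior degrees of freedom), and a gene was called at a two-sided adjusted p under 0.05 (Benjamini-Hochberg, all 8469 genes), for 7 contrasts. The fit was tried on simulated data with independent noise for each gene and array. These held no array sets and no outlying livers, so the trial cannot speak to those features. For arrays, their number limits the precision. Arrays were put in 2 sets at the largest gap in their upper quartile, which was chosen as a covariate for an alternative fit. Samples were told apart by the number that ends each title, since all titles name the same mouse. The member genes, the lists of related genes and markers, and the tests were chosen with earlier results of these data known. Members were all named; of related lists, up to 3 called genes per direction or else the 2 largest differences could be named, and Trib3, Sesn2, Rpn2, Erlin1, Ppib and Txndc12 are given as called genes. Marker lists were used for counts, ranges and defining genes, and the marker genes named beside them were picked after their values were seen. Alternatives comprised the array set, leaving out each array, filters on dim genes, the mean over probe sets, quantile and upper-quartile scaling, the groups in the fit, array weights and the variance prior.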

Additional observations from a re-analysis of the deposited data

How the results depend on the processing

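No member was called by limma at an adjusted p under 0.05 in any comparison with the fit as described, and the exceptions under the alternatives were all for genotype. After saline, 1 was called with the array set in the model (Edem2) and 4 with array weights (Dnajb9, Edem2, Hyou1 and Ssr1), against 2.87% and 15.6% of all tested genes. Over both injections, 2 were called with the array set (Dnajb9 and Edem2), 3 with array weights (Dnajb9, Edem2 and Derl3) and 1 with a trended, robust variance prior (Dnajb9), against 10.4%, 16.6% and 4.98% of all tested genes. With liver-null saline 4 left out and the array set in the model, an alternative chosen after seeing the data, 0 were called in either. Leaving out 1 liver at a time gave 0 calls throughout, and a median member difference of 0.09 to 0.32 for genotype after saline, -0.15 to 0.05 for genotype after APAP, 0.04 to 0.28 for APAP in wild-type, -0.17 to 0.03 in liver-null livers, -0.35 to -0.12 for their difference, 0.01 to 0.14 for genotype over both injections and -0.06 to 0.10 for APAP over both genotypes. The ends of these ranges came without liver-null saline 4 or 16, or wild-type APAP 12 or 14. Without both liver-null saline 4 and wild-type APAP 12 the median difference of the responses was -0.027. In that fit, also chosen after seeing the data, the median turned to 0.05 for genotype after APAP and to 0.03 for APAP in liver-null livers. With array weights the median member differences were, in the order above, 0.14, -0.02, 0.12, 0.005, -0.09, 0.02 and 0.08, so that the direction turned for APAP in liver-null livers. It turned as well for APAP over both genotypes with the upper quartiles made equal (-0.01), and for APAP in liver-null livers without liver-null saline 4 and with the array set (0.004). Of the single member differences recomputed under the alternatives, in the same order, 794, 764, 790 and 742 of 839 kept their sign in the first 4 comparisons, and 735, 753 and 716 of 804 in the last 3. No paired analysis was possible because no replicate number is shared between groups. With 3 livers a group, differences under about 1.29-fold lie within the median 95% interval.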
